A study of Mus musculus with 33 samples.

Results

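HSF1 chromatin immunoprecipitation sequencing (ChIP-seq) of heat shocked mouse embryonic fibroblasts (MEFs) was compared with the same ChIP-seq in MEFs that lack HSF1. The question was which wild type peaks after 12 min of heat shock also have a knockout peak under them, how high and wide that peak is, and at which genes it lies. The comparison uses 4 of the 33 samples of the series, 1 peak list each, out of 15 samples with a peak list. The wild type lists held 1781 peaks (antibody CS) and 1927 peaks (antibody MM), and the knockout lists held 5372 (CS) and 5996 (MM). Wild type CS and MM peaks that overlapped by at least 1 bp were joined into 1412 shared regions. A knockout peak of either list that overlapped a wild type peak or region by at least 1 bp counted as lying under it.

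The cells were MEFs of the 129Sv.BALB/c background, either wild type or HSF1-/-, and all 4 libraries came from cells heat shocked for 12 min. CS is the antibody labelled Cell Signaling #4356, and MM is labelled as a gift from the Morimoto lab. The labels do not name their target, and the file headers call the experiments Hsf1 ChIP-seq. By its label the knockout genotype lacks HSF1 but not HSF2, since cells lacking both are a separate group of the series. The sources used here do not say how many MEF isolates or clones stand behind either genotype, and peak lists hold no expression values with which fibroblast markers could be checked. With 1 list per genotype and antibody there is no replicate error and no test between genotypes, and each interval below is a 95% exact (Clopper-Pearson) interval that covers counting error only.

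HSF1 is a transcription factor that turns on genes of the heat shock response. Under proteotoxic stress it forms trimers, gathers in the nucleus and binds heat shock elements, arrays of inverted 5-base units of the form nGAAn, upstream of chaperone genes such as those of the Hsp70 and Hsp90 families. In ChIP-seq, chromatin that an antibody pulls down without its target also gives tags, and cells without the target measure this background for each antibody.

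The promoters below show what lay under the wild type summit at genes with and without a knockout peak. The 3 with a knockout peak are those of Hspa1b, an inducible Hsp70, Jun, a subunit of the AP-1 transcription factor, and Rangap1, the GTPase activator of the Ran nuclear transport cycle. The promoters without are those of Chordc1, an Hsp90 co-chaperone and the best-ranked wild type region at a protein-coding gene end, and Ahsa1, an activator of the Hsp90 ATPase. Each is a RefSeq window of 300 bases on build GRCm38.p6, from 250 bases before to 50 after an annotated start, printed 5′ to 3′ on the gene's strand. Only windows that contained the wild type summit were used, so the start need not be the outermost of the gene. It was position 87266728 at Ahsa1, where the gene begins at 87266415, and 81729919 at Rangap1, where the gene begins at 81730798. Capitals mark every match to heat shock element units 2 bases apart, GAANNTTC or TTCNNGAA, adjoining units included.
Hspa1b (chr17:34959189-34959488, minus strand): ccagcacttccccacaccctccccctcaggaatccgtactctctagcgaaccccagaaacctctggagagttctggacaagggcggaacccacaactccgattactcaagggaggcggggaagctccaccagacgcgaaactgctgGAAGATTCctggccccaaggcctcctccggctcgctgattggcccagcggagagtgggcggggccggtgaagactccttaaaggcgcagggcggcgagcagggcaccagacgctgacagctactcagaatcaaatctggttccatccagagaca
Jun (chr4:95052173-95052472, minus strand): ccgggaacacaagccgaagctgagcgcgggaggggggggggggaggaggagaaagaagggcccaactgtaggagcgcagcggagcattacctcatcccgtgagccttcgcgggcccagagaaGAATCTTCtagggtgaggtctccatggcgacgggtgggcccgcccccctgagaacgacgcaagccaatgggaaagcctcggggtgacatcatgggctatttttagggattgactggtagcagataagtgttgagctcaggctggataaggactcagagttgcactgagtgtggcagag
Rangap1 (chr15:81729870-81730169, minus strand): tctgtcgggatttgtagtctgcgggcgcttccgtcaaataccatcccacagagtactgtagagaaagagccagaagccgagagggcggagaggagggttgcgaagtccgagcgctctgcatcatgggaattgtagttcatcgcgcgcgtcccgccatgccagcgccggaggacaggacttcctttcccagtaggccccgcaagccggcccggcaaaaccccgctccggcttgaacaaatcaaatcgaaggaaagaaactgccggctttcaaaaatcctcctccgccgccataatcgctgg
Chordc1 (chr9:18292017-18292316, plus strand): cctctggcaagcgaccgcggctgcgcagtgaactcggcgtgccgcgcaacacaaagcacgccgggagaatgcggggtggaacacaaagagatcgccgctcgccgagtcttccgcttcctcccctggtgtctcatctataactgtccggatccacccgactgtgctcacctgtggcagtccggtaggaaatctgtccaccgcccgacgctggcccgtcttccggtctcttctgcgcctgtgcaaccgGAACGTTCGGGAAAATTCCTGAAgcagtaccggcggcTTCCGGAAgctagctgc
Ahsa1 (chr12:87266478-87266777, plus strand): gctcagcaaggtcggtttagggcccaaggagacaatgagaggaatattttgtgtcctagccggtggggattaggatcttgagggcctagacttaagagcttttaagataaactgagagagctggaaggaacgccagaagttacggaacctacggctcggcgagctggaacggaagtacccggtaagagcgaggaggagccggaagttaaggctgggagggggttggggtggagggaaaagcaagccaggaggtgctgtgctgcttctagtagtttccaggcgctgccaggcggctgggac

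At Chordc1 the longer run of adjoining units held the wild type summit, 8 bases after the annotated start, and no knockout peak met the region. At Jun the wild type summit lay 95 bases before the start and 26 bases from the capitals. The knockout summit at Jun lay 15 bases after the start, inside the same window. At Hspa1b the wild type summit lay 196 bases before the start and 92 bases from the capitals, whereas the knockout summit lay 238 bases after the start, beyond the end of the window. At Rangap1 the window held neither motif, with the wild type summit 195 bases before and the knockout summit 142 bases after the start. The Ahsa1 window held neither motif either, with the wild type summit 24 bases after the start and no knockout peak under the region. Windows with and without a motif thus occurred on both sides, and the Ube2d3 (with a knockout peak), Swt1 and Trmt1l (without) windows, chosen by the same ranking, held neither motif.

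The promoter table held a window for 270 of the 330 protein-coding genes bound in wild type, and 81 of these windows contained the wild type summit. A bound gene here is one with a shared region whose summit lies within 1 kb of either end of the gene. GAANNTTC or TTCNNGAA was found in 4 of the 8 windows with a knockout peak under the region (50%, interval 15.7% to 84.3%) and in 52 of the 73 without (71.2%, 59.4% to 81.2%). Over all 32619 windows searched the share was 15.1%. The longer form with 3 units, GAANNTTCNNGAA or TTCNNGAANNTTC, was found in 0 of 8 and in 15 of 73 (20.5%, 11.98% to 31.6%), against 0.607% of all windows. With 8 windows the interval for the share of 0 reaches 36.9%, so no difference between the groups was detectable at this number. The letters searched cover both strands, every longer match also contains the shorter one, and a match is a description of letters, not a binding site.

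Peaks were called differently in the genotypes, which bears on every value that follows. The wild type libraries held 26.3 (CS) and 17.7 (MM) M distinct tags (M for mega) and were called against an IgG library of 12.3 M, each after a merge of 2 replicates by the file headers. The knockout libraries held 5.18 (CS) and 15.6 (MM) M and were called with no control. The lowest tag count of a listed peak was 20 and 11 in the wild type lists and 4 and 6 in the knockout lists. The modelled fragment length was 128 and 107 bp in wild type, against 33 and 36 bp in the knockout, where it was near the tag length of 36 bp. Tag counts were therefore read within each list, by rank and against that list's own minimum, and no ratio was taken between genotypes.

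Few wild type peaks had any knockout peak under them. Of the 1412 shared regions 56 did (3.97%, 3.01% to 5.12%). The knockout CS list met 30 regions (2.12%, 1.44% to 3.02%) and the knockout MM list met 28 (1.98%, 1.32% to 2.85%), so each antibody's list gave a similar count although their depths differed. Only 2 regions (0.142%, 0.0172% to 0.511%) had a peak of both knockout antibodies. No shared region had a knockout peak with p of 1e-10 or less (0 of 1412, upper bound 0.261%), and 4 (0.283%) had a knockout peak of at least 10 tags.

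The count per antibody was much the same. Of the wild type CS peaks 72 of 1781 (4.04%, 3.18% to 5.06%) had a knockout peak, 39 of them a CS peak and 35 an MM peak. Of the wild type MM peaks 69 of 1927 (3.58%, 2.8% to 4.51%) had a knockout peak, 39 a CS peak and 38 an MM peak. Both wild type lists thus met knockout CS and MM peaks in near-equal numbers. Among peaks that only CS found in wild type, 18 of 368 (4.89%, 2.92% to 7.62%) had a knockout peak, and among those that only MM found, 23 of 507 did (4.54%, 2.9% to 6.73%). The intervals of these groups and of the shared regions overlap.

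**Figure D1:**
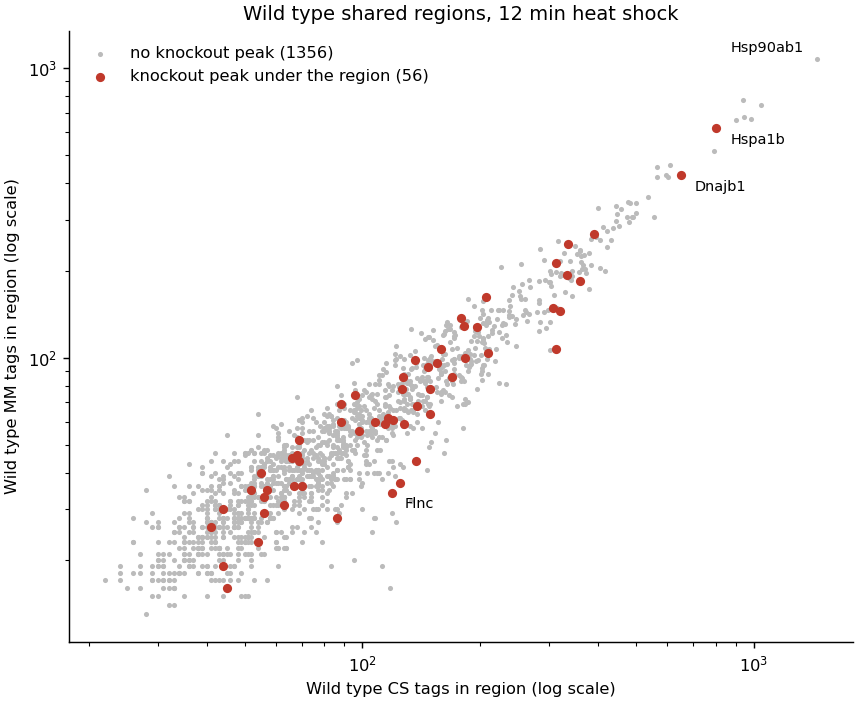
Tags of each of the 1412 wild type shared regions with antibody CS (horizontal, log scale) and MM (vertical, log scale), in red where a 12 min knockout peak of either antibody lies under the region. The 56 red points are spread over most of the range of tags, with Hspa1b (802 CS tags) and Dnajb1 (651) near the top.

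The knockout peaks under shared regions were low and short. There were 61, of which 33 were CS and 28 were MM, with 1 peak at 51 regions and 2 at the other 5. The CS peaks held 4 to 16 tags with a median of 4, and 28 of the 33 (84.8%) sat at the lowest count of their list. Over the whole knockout CS list 72.1% of peaks sat there. The MM peaks held 6 to 11 tags with a median of 7, and 13 of 28 (46.4%) sat at that list's minimum, against 55.5% of all knockout MM peaks. Their widths were 42 to 237 bp with a median of 86 bp (CS) and 74 to 143 bp with a median of 104 bp (MM), near the medians of 84 and 100.5 bp over their whole lists. The tallest reached rank 214 of 5372 in the CS list and rank 836 of 5996 in the MM list. The wild type peaks were wider, with medians of 778 bp (CS) and 604 bp (MM). The median distance between the knockout and wild type summits was 171 bp for CS and 301 bp for MM, and 31 of the 61 lay within 250 bp.

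**Figure D2:**
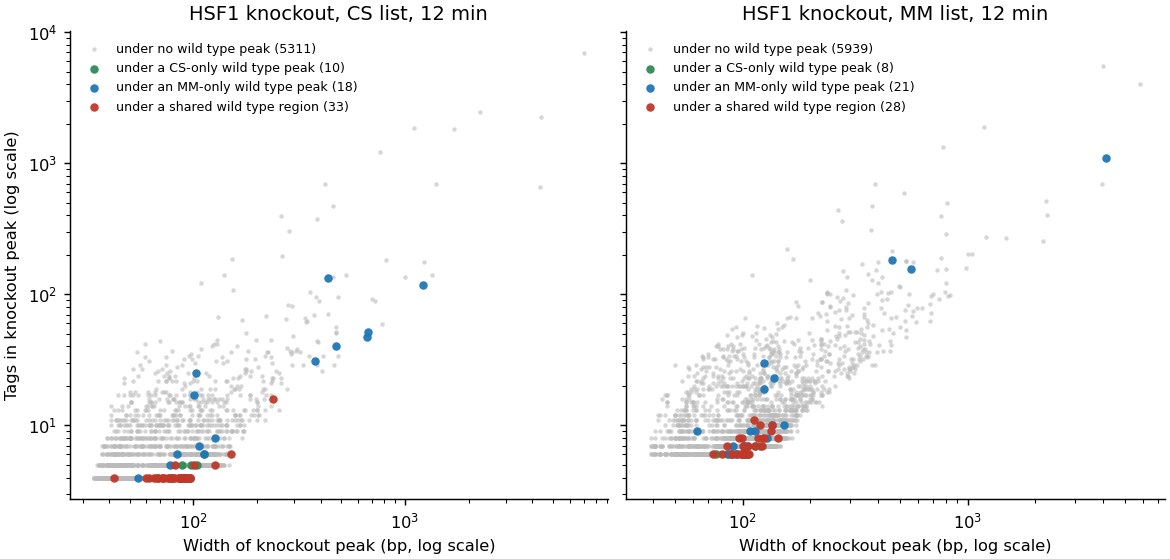
Width in bp (horizontal, log scale) and tags (vertical, log scale) of every knockout peak at 12 min, by list, coloured by the wild type peak it overlaps. Peaks under shared regions (33 CS, 28 MM) sit at the low, narrow end, at no more than 16 tags, while the lists run to 6990 (CS) and 5491 tags (MM).

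The 5 of these knockout peaks with the most tags, both lists pooled, can be named. The highest was a CS peak of 16 tags (exact Poisson interval 9.15 to 25.98) and 237 bp at Ccn1 (chr3:145649179-145649415), which encodes a secreted matricellular protein induced early by serum. An MM peak of 11 tags lay inside the non-coding genes Gm31718 and A630001O12Rik (chr8:126850082-126850193). MM peaks of 10 tags lay at Jun (chr4:95052136-95052254) and inside Myh9, which encodes a non-muscle myosin heavy chain (chr15:77801153-77801287). At Myh9 the summits of the genotypes were 1717 bp apart, the largest gap of the 61 peaks. The last was an MM peak of 9 tags inside Cubn (chr2:13407401-13407534), 103 bp from the wild type summit. This order pools lists of unequal depth (5.18 M distinct tags for CS, 15.6 M for MM) and is not one of rank within a list. By such rank a CS peak of 6 tags at A230108P19Rik (692 of 5372) stood above the MM peak of 11 tags (836 of 5996).

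A region seen with both antibodies in the knockout was the rare case. One lay inside Ubxn4 (chr1:128243875-128245429), with 86 CS and 28 MM tags in wild type, and in the knockout with a CS peak of 4 tags, 714 bp from the wild type summit, and an MM peak of 6 tags, 84 bp from it. These knockout peaks did not overlap each other. The other lay outside genes (chr2:10301355-10302185), with 70 CS and 36 MM tags in wild type and overlapping knockout peaks of 4 (CS) and 7 tags (MM) at 283 and 264 bp from its summit. Both knockout peaks at this place were thus at or just above the lowest count of their lists.

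At gene ends, 22 of the 330 bound protein-coding genes (6.67%, 4.22% to 9.92%) had a knockout peak under their region, at 20 regions, since Dedd2 shares a region with Zfp526 and Jund with Iqcn. Without the knockout CS list the number was 10, and without the knockout MM list it was 12. The groups are given in order of role.

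Cytosolic chaperones, the classic HSF1 targets, made up 30 of the bound genes, and 3 of them (10%) had a knockout peak. Dnajb1, the Hsp40 co-chaperone that delivers clients to Hsp70, had 651 CS and 427 MM tags in wild type. In the knockout it had no CS peak and an MM peak of 6 tags (2.2 to 13.1) and 103 bp, 104 bp from the wild type summit. Hspa1b had 802 CS and 621 MM tags in wild type, no knockout CS peak and a knockout MM peak of 8 tags (3.45 to 15.8) and 123 bp, 434 bp away. Ppid, the cyclophilin 40 co-chaperone of Hsp90, had 127 and 86 tags in wild type and a knockout CS peak of 4 tags (1.09 to 10.2) and 88 bp, 82 bp away, with no MM peak. Dnajb1 and Hspa1b were thus among the 10 wild type regions with the most tags and Ppid was not, and each of the 3 had a peak in only 1 knockout list, at or near its minimum. The deposited FDR of the wild type CS peak was 12.5% at Dnajb1 and 7.41% at Hspa1b, and that of the MM peak was 0% at both. With wild type peaks limited to an FDR of 5% or less, 14 of the 30 bound chaperone genes remained, 1 of them (Ppid) with a knockout peak. Chaperone genes with no knockout peak under their region also exceeded this limit with CS, such as Stip1 (33.33%) and Chordc1 (20%). With MM their FDR was 0%, so the limit also removed regions with many tags. Hspa1a encodes a nearly identical Hsp70, and tags in the shared sequence of this pair cannot be assigned with certainty to either gene.

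The other 27 bound chaperone genes had no knockout peak under their region. The 4 best ranked by wild type fold were Chordc1 (565 CS and 420 MM tags), Ahsa1 (458 and 327), Stip1, the adaptor between Hsp70 and Hsp90 (792 and 518), and Hspa4l, an Hsp110 (380 and 230). The regions with the most tags of all, at Hsp90ab1 (1452 and 1076), the constitutive Hsp90, and Hspa8 (1045 and 747), the constitutive Hsp70, likewise had none. Hsph1 (986 and 666) and Dnaja1 (902 and 664) had none either. Chaperones with many wild type tags thus fell on both sides.

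The bound genes of the other folding, clearance and ribosomal lists had no knockout peak under their region. These lists are small, and against the 6.67% of all bound genes (22 of 330) a count of 0 in any of them lies near that share. The TRiC/CCT chaperonin, which folds actin and tubulin, and prefoldin counted 0 of 8 bound genes, with Cct7 (597 CS and 429 MM tags in wild type), Cct4 (475 and 307), Cct3 (334 and 194) and Tcp1 (384 and 209) ranked first. The mitochondrial list counted 0 of 3, with Hspd1 and Hspe1, the mitochondrial chaperonin and its cofactor, sharing a region of 938 and 779 tags. The endoplasmic reticulum list counted 0 of 4, led by Serpinh1, the collagen chaperone Hsp47 (491 and 307), and Hsp90b1, the Hsp90 of that compartment (201 and 102). Ubiquitin and clearance genes counted 0 of 5, led by the polyubiquitin gene Ubb (484 and 341) and the shuttle factor Ubqln1 (479 and 295). Ribosomal protein genes counted 0 of 2, Rplp2 and Rps13.

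Each of the 3 bound immediate early and AP-1 genes had a knockout peak. Jun had 183 CS and 100 MM tags in wild type, and in the knockout no CS peak and an MM peak of 10 tags (4.8 to 18.4) and 119 bp, 110 bp from the wild type summit. Jund, another AP-1 subunit, had 69 and 52 tags and a knockout CS peak of 4 tags and 42 bp, the narrowest of the 61, 469 bp away. The wild type summit of that region lay 643 bp from an end of Jund but 62 bp from an end of Iqcn. Its count for Jund thus rests on the distance of 1 kb to either gene end, and it may belong to Iqcn. Ccn1 had 136 and 98 tags and the CS peak of 16 tags described above, 822 bp away. These are 3 genes against 6.67% of all bound genes, they were listed with results of these data known, and other genes of the list that were not bound also had knockout peaks at their ends, as given further on. Of the 4 bound genes of actin cytoskeleton and adhesion, Flnc, an actin crosslinking filamin, had 119 and 34 tags in wild type and 2 knockout CS peaks of 4 tags each. Cald1, Wdr1 and Myl12a had none.

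The other 15 genes with a knockout peak were on no list. By wild type fold rank these were Mrfap1 (335 CS and 247 MM tags in wild type, with an MM peak of 6 tags in the knockout), Rangap1 (333 and 193, CS peak of 4), Mat2a, an S-adenosylmethionine synthetase (361 and 184, CS peak of 4), Eif5, a translation initiation factor (155 and 96, CS peak of 4), and Ube2d3, a ubiquitin-conjugating enzyme (320 and 145, MM peak of 6). Tmem95, Dedd2, Zfp526, Them4, Nme2, Iqcn, Cenpf, Snap23, Ankrd11 and Ndufa6 followed, with 55 to 147 CS tags in wild type and knockout peaks of 4 to 8 tags. None of these 15 exceeded 8 knockout tags.

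**Figure D3:**
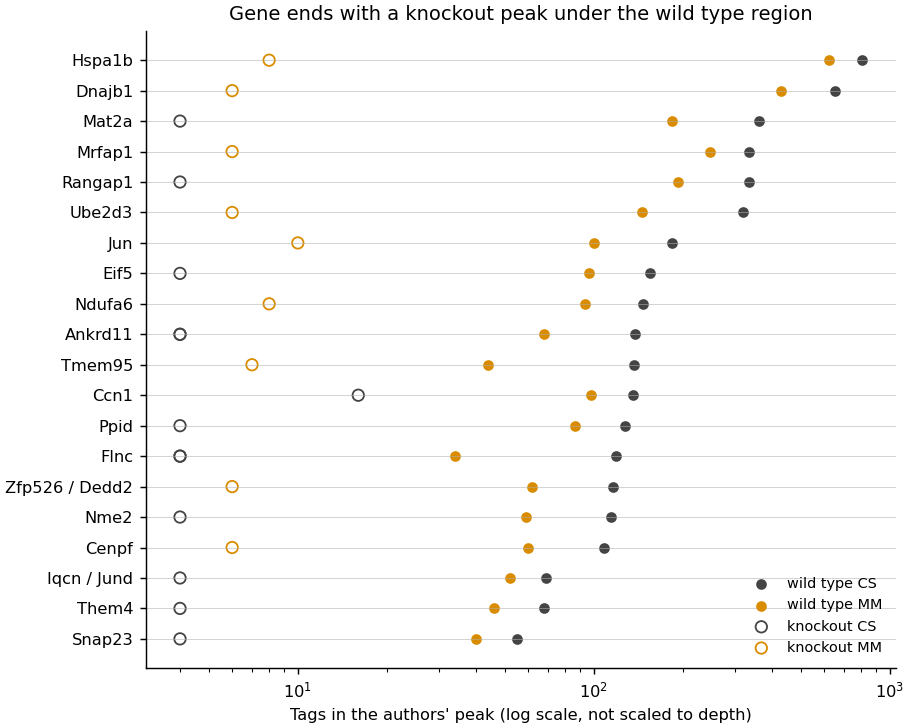
Tags (horizontal, log scale) at the 20 regions of the 22 bound genes with a knockout peak, in the wild type lists (filled) and the knockout lists (open), by antibody. Every knockout peak lies at 4 to 16 tags, most of them at the lowest count their list holds, and no gene has an open point of both antibodies.

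Few of these knockout peaks recurred at other times. Of the 61, 1 met a peak of the knockout lists made before heat shock, 4 met one at 60 min, and 0 met one at both times. The share of all 12 min knockout peaks that recurred was not set beside these counts. Low recurrence is thus not shown to be particular to peaks under wild type regions. Counting knockout peaks anywhere under the wild type region, Hspa1b, Rangap1 and Ndufa6 also had a knockout peak before heat shock, and Rangap1, Jun, Ccn1, Ankrd11 and Ndufa6 had one at 60 min. Rangap1 and Ndufa6 thus had one at all 3 times, while Dnajb1 had one at 12 min only. With the knockout lists of all 3 times together the share of shared regions rose from 3.97% to 11.7%, and the number of bound genes from 22 to 75.

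The share of shared regions with a knockout peak was set against wild type strength by fold and by tags. None of the 50 regions with the best mean fold rank had a knockout peak. These were led by regions inside Lrrk1 (339 CS and 215 MM tags), Srgap1 (432 and 254) and Gm39913 (444 and 335). Among the first 200 by fold 9 had one, and among the first 200 by tags 15 did, including 2 of the first 10, Hspa1b and Dnajb1. The counts by fold, 0 of 50 and 9 of 200, lie near the 3.97% of all shared regions (56 of 1412). By quintile of wild type CS fold the share was 6.36%, 4.61%, 2.13%, 2.84% and 3.89% from lowest to highest, and the intervals of the lowest (3.81% to 9.87%) and the highest (1.96% to 6.85%) overlapped. By quintile of CS tags it was 1.41%, 2.84%, 2.84%, 6.03% and 6.71%, and the intervals of the lowest (0.386% to 3.58%) and the highest (4.09% to 10.3%) did not overlap. Within 500 bp of the wild type summit, in place of the called region, it was 1.77%, 3.19%, 2.84%, 3.9% and 5.3%. There the intervals of the lowest (0.576% to 4.07%) and the highest (2.997% to 8.59%) overlapped. Median region width rose from 629 bp in the lowest to 1266 bp in the highest of these quintiles.

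Regions with a knockout peak were wider, with a median of 1154 bp (quartiles 920.5 to 1580) against 815 bp (687 to 1063) for the 1356 without. By quintile of width the share with a knockout peak was 1.06%, 1.42%, 2.13%, 5.67% and 9.54% (6.38% to 13.6% in the widest). A wider region covers more bases in which a peak can fall. When 500 bp on each side of every wild type summit was used in place of the called region, the shares were 1.41%, 1.42%, 2.48%, 5.32% and 6.36% (3.81% to 9.87% in the widest), so the order by width held with a window of fixed size. The same window gave 3.4% over all shared regions.

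Position relative to genes went the same way. Of the 372 regions at an end of any annotated gene 29 had a knockout peak (7.8%, 5.28% to 11%), against 19 of 598 inside genes (3.18%, 1.92% to 4.92%) and 8 of 442 between genes (1.81%, 0.785% to 3.54%). The interval at gene ends overlaps neither of the others. In the fixed window the shares were 6.18% (3.96% to 9.13%), 3.01% (1.79% to 4.72%) and 1.58% (0.639% to 3.24%), and there the interval at gene ends overlapped that inside genes. Regions at gene ends were also wider, with a median of 1066 bp against 796.5 and 763.5 bp, and the part of width in the difference was not tested. Inside genes the regions with a knockout peak included ones in Notch2 (307 CS and 149 MM tags in wild type, CS peak of 4), Plec (169 and 86, CS peak of 4), Adamts2 (207 and 162, MM peak of 7) and Pxn (63 and 31, CS peak of 4), named here after their values were seen.

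**Figure D4:**
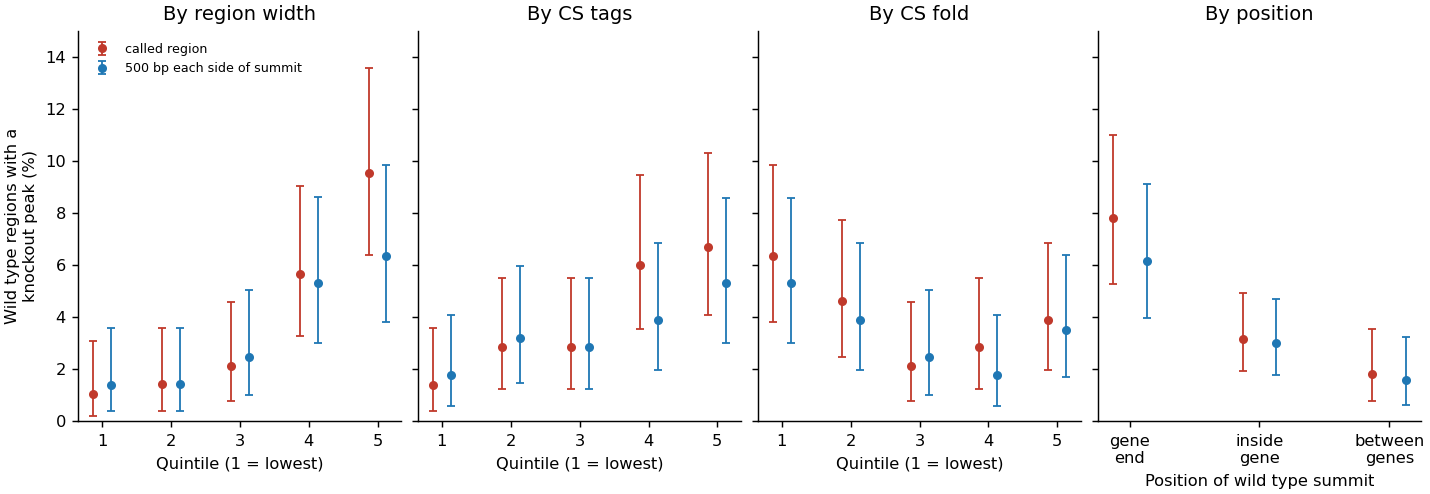
Percent of wild type shared regions with a knockout peak, by quintile of region width, CS tags and CS fold and by position, for the called region and for 500 bp on each side of the summit, with 95% exact intervals that cover counting error only. The share runs from 1.06% in the narrowest to 9.54% in the widest quintile and from 1.81% between genes to 7.8% at gene ends.

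Over all shared regions, knockout summits were denser near wild type summits than farther away. Within 500 bp of the summits of the shared regions there were 47 knockout summits, or 33.3 per Mb. Between 500 and 2000 bp there were 71, or 16.8 per Mb, and between 2 and 10 kb there were 222, or 9.83 per Mb. Over the whole effective genome that the caller assumed, the knockout lists held 6.08 per Mb. The density near the summit was 61.8 per Mb at gene ends (23 summits), 26.8 inside genes (16) and 18.1 between genes (8), while at 2 to 10 kb it was 11.1, 7.53 and 11.9. The density near the summit was thus highest at gene ends, and these densities carry no test. Between genes the knockout CS list fell with distance, from 13.6 to 8.3 and 6.08 per Mb. The knockout MM list did not, with 4.52 (2 summits), 7.54 and 5.8 per Mb.

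**Figure D5:**
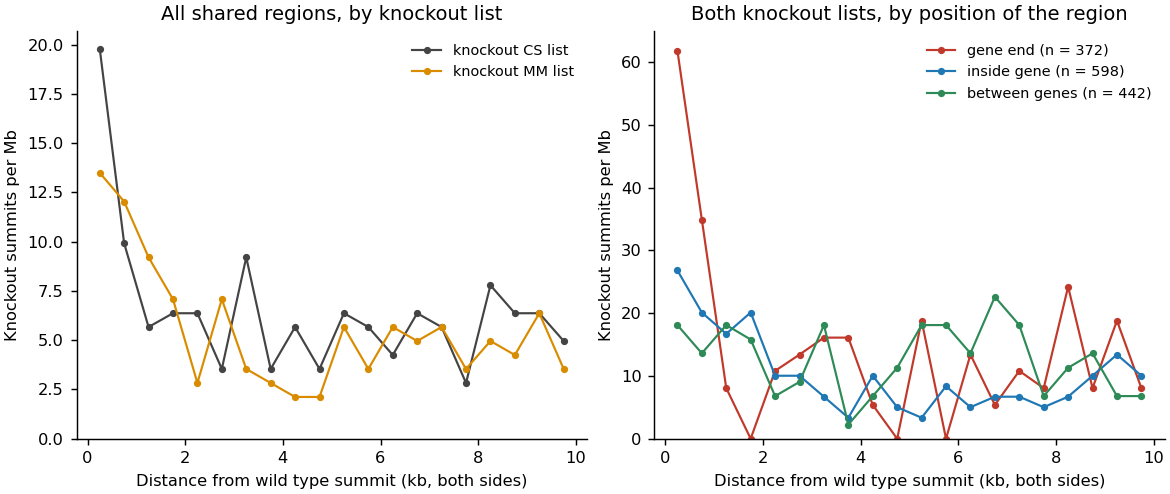
Knockout peak summits per Mb (vertical) against distance from the wild type shared-region summit in bins of 500 bp up to 10 kb (horizontal), by knockout list and by position of the region. The first bin is the highest for each list and for regions at gene ends (61.8 per Mb) and inside genes (26.8), but not for regions between genes (18.1).

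Knockout peaks also lay at ends of genes with no wild type region. Within 1 kb of a gene end a knockout peak summit was found at 27 of 330 bound genes (8.18%, 5.46% to 11.7%) and at 1101 of 21301 protein-coding genes that were not bound (5.17%, 4.88% to 5.47%). Counted over all listed genes, bound or not, knockout peaks were at 10 of 26 immediate early and AP-1 genes (38.5%, 20.2% to 59.4%), 9 of 30 actin and adhesion genes (30%, 14.7% to 49.4%) and 4 of 15 fibroblast and matrix genes (26.7%, 7.79% to 55.1%), against 5.21% of all protein-coding genes. Most intervals of the lists overlap one another, and no difference between lists was tested. Knockout peaks were at 8 of 43 cytosolic chaperones (18.6%, 8.39% to 33.4%), 2 of 23 ribosomal protein genes (8.7%), 0 of 22 markers of other cell types (upper bound 15.4%) and 0 of 6 heat shock factor genes.

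Among the genes with no shared region in wild type, Egr1, a zinc finger transcription factor of the immediate early response, had a knockout CS peak of 6 tags, Junb, an AP-1 subunit, a CS peak of 7 tags, and Zfp36, which destabilises mRNA, an MM peak of 8 tags. Actb, which encodes cytoplasmic beta-actin, had peaks of 12 (CS) and 30 tags (MM), Actg1 of 9 and 17, and Acta2, smooth muscle actin, of 4 (CS) and 9 and 13 (MM). Vim, the fibroblast intermediate filament, had an MM peak of 8 tags. None of these 7 genes had a wild type peak of either antibody at its ends. So the knockout peaks at these groups were not limited to places bound in wild type, and Actb and Actg1 had taller ones than any peak under a shared region of a chaperone. These genes were named after their values were seen.

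At Ccn1 a taller knockout peak lay beside the wild type region without meeting it. This was an MM peak of 53 tags and 532 bp (chr3:145647426-145647957), 1035 bp from the region, and a CS peak of 12 tags lay 2097 bp from it. The MM peak lay within 1 kb of an end of the gene and had p of 1e-10 or less. It was named after its values were seen.

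The strong knockout peaks were elsewhere. The knockout lists held 591 (CS) and 672 (MM) peaks with p of 1e-10 or less, and 0 and 0 of these overlapped a wild type CS peak or a shared region. Wild type MM peaks met 4 and 6 of them, all at 4 peaks that only MM found in wild type, out of 507 (0.789%, 0.215% to 2.01%). The largest of the 4 (chr1:24611282-24616333) was 5052 bp wide with 2701 tags, the most of any wild type MM peak, at the lowest fold of that list, 3.53. Under it lay 7 knockout peaks, with up to 117 (CS) and 1098 tags (MM), and it spans the annotated pseudogenes Gm10222 and Gm10925. The second (chr12:69361198-69361710, 23 tags in wild type) spans Rn7s2, annotated as a small cytoplasmic RNA gene, and had knockout peaks of up to 25 (CS) and 30 tags (MM). The third lay inside the non-coding gene Gm34259 (chr17:4626243-4626659, 20 tags), with knockout peaks of 132 (CS) and 182 tags (MM), and the fourth outside genes (chr5:60042616-60043145, 76 tags), with 4 (CS) and 19 tags (MM). None of the 4 lay within 1 kb of a protein-coding gene.

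Of the 855 regions that both antibodies found in the knockout, 1 (0.117%) met a wild type shared region and 8 (0.936%) met a wild type MM peak. The 5 with the most tags met no wild type peak of either antibody. These were at chr14:19415700-19419708 (2453 CS and 5491 MM tags), chr17:39842998-39848831 (2239 and 4043), chr2:98666170-98667347 (1848 and 1899), chr2:98662222-98662997 (1227 and 1324), and inside Gm33838 at chr9:35305209-35305630 (691 and 698). The wild type lists were called against IgG and the knockout lists were not, so the absence of such places from the wild type lists and this difference in calling cannot be told apart.

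Depth sets what the knockout lists could show. Scaled by distinct tags to the depth of the knockout library, the wild type shared regions would hold 4.34 to 286.2 CS tags (median 15.6) and 11.4 to 945.1 MM tags (median 39.5). All 1412 would then reach the lowest listed count of 4 (CS) and 6 (MM), and 1085 would reach 10 CS tags. These tags spread over the wider wild type peaks, and the calling differed, so this is a statement about depth and not about what the caller would have listed. No knockout peak below 4 (CS) or 6 tags (MM) was listed. These counts are per called peak, and the median knockout peak was narrower than the wild type regions. A region without a listed peak may thus hold more tags than this, spread over its width.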

How the data were processed

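The 4 peak lists of 12 min heat shock were analysed, 1 library per genotype and antibody. Per the file headers peak calling by the authors used MACS 1.4.2 and a p cutoff of 1e-04, keeping 1 tag per position. The build was mm10, per the submitters' processing notes. Wild type libraries were a merge of 2 replicates called against IgG, per the file headers, and knockout libraries name no merge or control and were called against background over 10000 bp. For the aligner, the name and version are not given in the sources used here. Each deposited peak carries the authors' tag count, a score (10 times the negative log10 of the caller's p), a ratio to background (fold enrichment) and, in wild type, an FDR in percent, as deposited. Peak lists keep the depth per library, and precision is limited by counting error at 4 to 16 tags.

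From these lists, overlaps, shared regions, exact intervals and gene positions were computed with python 3.11.15, pandas 2.3.3, numpy 2.4.6 and scipy 1.17.1, and figures with matplotlib 3.10.9. The overlap code was tested on simulated data. Gene ends came from the GRCm38.p6 RefSeq gene table (21631 protein-coding genes), which gives no strand, and promoter windows from the RefSeq promoter table of the same build. A shared region's position is that of its wild type summit. All 244 genes of the 12 gene lists were in that table.

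The members and lists were chosen with earlier results of these data known. Genes were named by rule. It took all bound genes with a knockout peak, up to 4 other bound genes of each list by fold rank and the first 10 regions by fold and by tags. Under shared regions it took the 5 knockout peaks with the most tags, lists pooled, and the regions of both knockout antibodies. It also took the 5 highest knockout regions of both antibodies and up to 4 promoters with and without a knockout peak, of which 5 are printed. Other names were chosen after their values were seen, as stated beside them. The alternatives tried were other overlap rules, peak thresholds, gene distances and knockout lists. Libraries of other times were used only to ask whether knockout peaks recurred, and the SRF lists were not used here.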

Additional observations from a re-analysis of the deposited data

How the results depend on the processing

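Of 81 values recomputed under other settings, 42 moved by less than the interval or margin of the value reported and 39 moved by more. The share of shared regions with a knockout peak (3.97%) was 1.06% with knockout peaks of p 1e-05 or less, 0% at 1e-10 and 0.283% with at least 10 tags. It was 1.98% without the knockout CS list, 2.12% without the knockout MM list, 11.7% with the lists of all 3 times and 2.12% with a knockout summit within 250 bp. In the same order up to all 3 times the share of wild type CS peaks (4.04%) was 1.01%, 0%, 0.225%, 1.97%, 2.19% and 11.4%, and that of MM peaks (3.58%) was 1.3%, 0.208%, 0.415%, 1.97%, 2.02% and 9.7%. The number of bound genes (22) was 6, 0, 2, 10, 12 and 75, and 9 with wild type peaks of p 1e-10 or less. The number of chaperone genes (3) was 0, 0 and 0 under the 3 peak thresholds, 1 without the MM list, 9 with all times and 1 with a wild type FDR of 5% or less. The median of 5 tags was 10.5 with at least 10 tags and 7 without the CS list. The median width of 93 bp was 127 bp with at least 10 tags, 104 bp without the CS list, 86 bp without the MM list, 100.5 bp with all times and 100 bp with wild type p of 1e-10 or less. At a knockout p of 1e-10 no peak was left to give a median. A list left out or a stricter threshold leaves fewer knockout peaks to overlap, by construction. The share by overlap of 50%, by knockout summit inside the region or by wild type threshold stayed within the interval of 3.97%. The settings with a fixed window, a summit distance and annotated starts were chosen after seeing the data. No paired analysis was possible because each genotype and antibody has 1 list. Limits are the missing replicates, unequal depth and fragment models, and the missing knockout control.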
